A study of Mus musculus with 16 samples.

Results

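The 10 genes described here mark the earliest steps of lymphoid commitment and antigen receptor gene assembly: Dntt, Rag1, Rag2, Il7r, Ly6d, Arpp21, Satb1, Notch1, Ccr9 and Lck. They were taken by symbol from the 47937 gene identifiers of the count tables, and 10 of 10 were found and tested. The libraries were made from 2 populations of multipotent progenitors, sorted from the bone marrow of C57BL/6 mice and sequenced in bulk: MPP3 (LSK CD150- CD48+) and MPP4 (the same gate with Flt3+), where LSK stands for lineage-negative, Sca-1-positive, Kit-positive cells. Each population was sequenced in 4 libraries labelled WT and 4 labelled KO, 16 in all, from 8 mice that each gave an MPP3 and an MPP4 library. Per the sample labels, WT mice were Ebf1fl/fl Tie2Cre+/+ and KO mice were Ebf1fl/fl Tie2Cre+/cre, so that both genotypes held floxed alleles of Ebf1, which encodes a transcription factor that specifies B cells, and only KO mice held the Cre transgene. The series description gives the transgene to both genotypes and unfloxed alleles to the WT mice, and gene counts cannot settle which holds. Tie2Cre is active in endothelium as well as in hematopoietic stem cells, and the labels do not say that Flt3+ cells were excluded from MPP3. The WT mice were 11 to 12 weeks old and the KO mice 9 to 11 weeks old, with 2 females and 2 males in each genotype.

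In the hematopoietic hierarchy, MPP3 cells are biased to the myeloid fates and MPP4 cells to the lymphoid fates, and Flt3 on the surface marks the lymphoid-primed branch. Before any B or T cell exists, such cells begin to transcribe the recombination machinery. The Rag1 and Rag2 proteins form the recombinase that cuts DNA at antigen receptor segments, and terminal deoxynucleotidyl transferase, the product of Dntt, adds untemplated nucleotides at the junctions. Il7r encodes the receptor chain that binds IL-7, a cytokine needed for early lymphocytes in the mouse, and Ly6d marks common lymphoid progenitors that lean to the B lineage. Satb1 is a chromatin organiser of lymphoid progenitors. Notch1, Ccr9 and Lck belong to the T lineage side, as the receptor that starts T cell specification, a thymus homing receptor and a kinase of the T cell receptor.

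Library totals ranged from 24823708 to 48703193 counts, and 3 counts, the limit that a count of 0 allows, were worth between 0.0619 and 0.118 normalised CPM (counts scaled to a common library size) in a library. The counts of Ebf1 itself were 5, 21, 91 and 82 in WT and 23, 6, 84 and 6 in KO libraries of MPP3. In MPP4 they were 187, 98, 199 and 263 in WT and 817, 928, 488 and 642 in the libraries labelled KO, which goes against a plain reading of the label. A count over the whole gene does not report on a deleted exon, so this checks the alleles only in part. A gene was called at a false discovery rate (FDR) under 0.1 in edgeR's quasi-likelihood test, which was run on 11831 genes with a mean above 100 counts in at least 1 group. Of the 10 genes, Rag1, Rag2, Il7r and Ccr9 passed that filter only through MPP4, the population in which they were higher.

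Each of the 10 genes had a higher level in MPP4 than in MPP3 in 8 of 8 mice. The share of all genes with this pattern was not taken, so it is a description. Rag1, Rag2, Il7r and Ccr9, tested only through MPP4, are given by their values with no test of this gap. The counts that follow are over the 6 genes that exceeded the minimum in MPP3 too. Of these 6, 5 passed the test as lower in MPP3 in WT mice and 6 in KO mice, where 7.33% and 8.14% of all 11482 genes past the minimum in MPP3 did so. Ly6d was the gene that did not pass in WT. The libraries of the populations did not overlap for 5 of the 6 in WT and 6 in KO, with MPP3 lower, where 7.37% and 7.6% of the 11482 genes showed this. The median log2 difference of MPP3 from MPP4 over the 6 genes was -1.81 in WT and -2.15 in KO, against 0.0061 and -0.00082 over the 11482 genes. In bulk samples, fewer cells of a type and less RNA per cell cannot be told apart. The genes spread widely in how much of the MPP4 level remained in MPP3. In WT mice the MPP3 mean was 3.63% of the MPP4 mean for Dntt, 5.55% for Ccr9 and 7.78% for Rag1, but 33.5% for Lck, 37.7% for Satb1 and 57.8% for Ly6d. Flt3, whose product defined the MPP4 gate, stood at 22.9%.

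**Figure D1:**
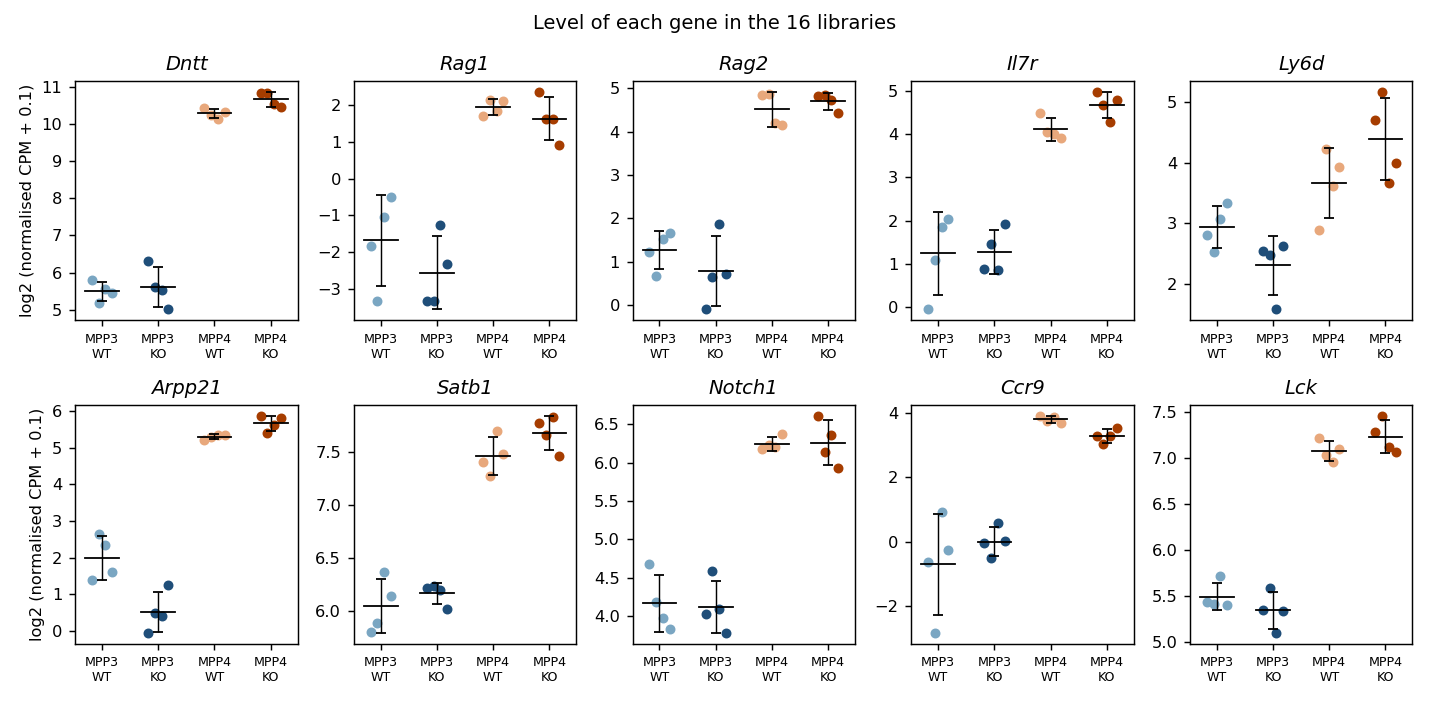
Level of the 10 genes in the 16 libraries, as log2 of normalised CPM plus 0.1, 1 panel per gene with its own vertical scale, 4 points per group and the mean with its SD in black. Apart from Ly6d in WT, the MPP3 and MPP4 points of a genotype do not overlap in any panel, while WT and KO points of a population overlap in most. Rag1, Rag2, Il7r and Ccr9 were tested only through MPP4, so their gap is a description.

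Of the 10 genes, Dntt had the widest fitted gap between the populations in WT mice. It was also by far the most abundant gene of the set in MPP4 per length, at 549 ± 48.5 CPM per kb of exon (SD, n = 4) in WT. Its normalised CPM was 55.8, 36.2, 47.3 and 43.3 in MPP3 WT, and 1392, 1214, 1132 and 1294 in MPP4 WT. In KO mice it was 79.2, 48.5, 45.8 and 32.2 in MPP3, and 1827, 1836, 1493 and 1410 in MPP4. Every MPP4 library thus lay more than an order of magnitude above every MPP3 library. The fitted log2 difference of MPP3 from MPP4 was -4.78 ± 0.23 (SE) in WT (edgeR FDR 8.08e-10) and -5.00 ± 0.23 in KO (edgeR FDR 5.91e-10).

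Rag1 and Rag2, neighbours on chromosome 2 that are transcribed towards each other, were far scarcer than Dntt per length. In MPP3, Rag1 had 6, 0, 16 and 24 counts in the WT libraries and 0, 0, 12 and 4 in the KO libraries. In MPP4 it had 132, 127, 168 and 178 counts in WT and 173, 110, 80 and 65 in KO. Rag1 was therefore at the edge of detection in MPP3 and low but present in every MPP4 library. Taken over the 4 pooled libraries, Rag1 stood at 0.329 CPM in MPP3 WT (46 counts) and 0.110 CPM in MPP3 KO (16 counts), and the MPP4 means were 11.4 and 28.9 times these levels. The fitted log2 value for MPP3 minus MPP4 was -3.60 ± 0.75 in WT and -4.83 ± 0.84 in KO, given with no test. Of the 16 counts in MPP3 KO, 12 came from replicate 3, and without that library the KO value was -6.32.

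Per kb of exon, Rag2 had a higher mean level than Rag1 in each of the 4 groups. In MPP3 its counts were 74, 38, 115 and 122 in the WT libraries and 32, 44, 134 and 61 in the KO libraries. In MPP4 they were 1220, 865, 884 and 750 in WT, and 974, 1074, 709 and 781 in KO. On the log2 scale MPP3 minus MPP4 was -3.28 ± 0.35 in WT and -3.82 ± 0.36 in KO. Per exon base, the Rag2 level was 8.13 to 17.8 times that of Rag1 in the MPP4 WT libraries and 10.9 to 23.2 times in the MPP4 KO libraries. Another gene of that locus, B230118H07Rik, shares 1.21% of the Rag1 exon bases on the same strand and 6.08% of the Rag2 exon bases on the opposite strand, and it had 1306 to 3049 counts in MPP4. Reads over the bases shared with Rag1 are uncertain under any strand setting, and those over the bases shared with Rag2 are uncertain where the counting did not use strand.

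The promoters of the 3 recombination genes and of Il7r are shown because these genes share the MPP4-high pattern and can be read against motifs of lineage factors. RefSeq windows of 300 bases, from 250 before to 50 after the transcript start, were found for 9 of the 10 genes, all but Ly6d. The 7 motifs searched on both strands were CCCNNGGG (the core bound by EBF1), CAGCTG and CAGGTG (E-boxes), TGTGGT (RUNX), TGGGAA (shared by Ikaros and RBPJ), TTGCNNAA (C/EBP) and GAGGAA (PU.1). None of these spellings contains another. Matches are in capitals. The windows, 5′ to 3′ on the gene's strand in GRCm38.p6, are at chr19:41029025-41029324 on the + strand for Dntt, chr2:101649483-101649782 on the - strand for Rag1, chr2:101624462-101624761 on the + strand for Rag2 and chr15:9529827-9530126 on the - strand for Il7r.
Dntt: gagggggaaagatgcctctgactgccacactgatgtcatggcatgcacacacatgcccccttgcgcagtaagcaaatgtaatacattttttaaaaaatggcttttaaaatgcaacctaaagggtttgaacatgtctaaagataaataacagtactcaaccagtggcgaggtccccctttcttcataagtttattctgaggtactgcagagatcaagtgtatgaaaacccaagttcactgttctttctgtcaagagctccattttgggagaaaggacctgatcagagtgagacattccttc
Rag1: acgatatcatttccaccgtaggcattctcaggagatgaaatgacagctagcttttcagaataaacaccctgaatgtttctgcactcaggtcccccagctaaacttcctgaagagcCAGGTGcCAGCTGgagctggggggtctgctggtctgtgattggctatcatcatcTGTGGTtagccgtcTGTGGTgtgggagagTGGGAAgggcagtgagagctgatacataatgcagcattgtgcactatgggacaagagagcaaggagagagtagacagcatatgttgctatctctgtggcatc
Rag2: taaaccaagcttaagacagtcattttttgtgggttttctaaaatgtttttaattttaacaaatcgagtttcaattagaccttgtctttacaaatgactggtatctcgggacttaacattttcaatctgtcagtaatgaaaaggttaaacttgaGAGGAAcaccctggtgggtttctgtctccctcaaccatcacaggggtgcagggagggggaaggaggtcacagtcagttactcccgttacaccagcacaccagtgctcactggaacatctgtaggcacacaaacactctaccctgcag
Il7r: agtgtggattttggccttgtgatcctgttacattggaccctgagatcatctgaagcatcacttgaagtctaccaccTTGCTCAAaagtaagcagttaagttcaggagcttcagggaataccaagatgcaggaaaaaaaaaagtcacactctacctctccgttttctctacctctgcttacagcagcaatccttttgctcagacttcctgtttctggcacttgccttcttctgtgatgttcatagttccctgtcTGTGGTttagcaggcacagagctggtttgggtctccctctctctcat
The Dntt window held 0 matches. The Rag1 window held 5, with CAGGTG first at base -135 from the start, CAGCTG at -128, TGTGGT at -81 and -67, and TGGGAA at -52. The Rag2 window held GAGGAA at -97, and the Il7r window held TTGCTCAA at -174 and TGTGGT at +3. CCCNNGGG was in the windows of 0 of the 9 genes and in 13.7% of all 32851 promoter windows. TGTGGT was in those of 4 of 9 (Rag1, Il7r, Arpp21 and Lck) and in 16.8% of all windows. CAGGTG and GAGGAA were each in those of 5 of 9, against 20.2% and 28.3% of all windows. CAGCTG and TGGGAA were each in those of 3 of 9, against 16.3% and 25.6%. TTGCNNAA was in those of 2 of 9, against 10.8%. Arpp21, Satb1 and Lck entered with several start sites each. A match is a run of letters and not a measured site.

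Il7r and Ly6d, genes of the common lymphoid progenitor stage, differed from each other in how far they separated the populations. In MPP3, Il7r stood at 0.87, 2.05, 3.54 and 4.05 CPM in the WT libraries and 1.75, 2.66, 1.72 and 3.70 in the KO libraries. In MPP4 it stood at 22.4, 16.4, 15.9 and 14.8 CPM in WT and 31.2, 25.6, 19.2 and 27.6 in KO. The lowest MPP4 library was thus above the highest MPP3 library in both genotypes, and the WT and KO libraries overlapped within each population. Its log2 difference of MPP3 from MPP4 was -2.71 ± 0.36 in WT and -3.40 ± 0.37 in KO.

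In WT mice, Ly6d was the gene with the smallest gap. It stood at 6.86, 5.68, 8.33 and 9.97 CPM in MPP3 WT and 7.29, 18.7, 12.1 and 15.2 in MPP4 WT, with the MPP4 library of mouse WT1 inside the MPP3 range. In KO mice it stood at 5.73, 5.44, 2.89 and 6.06 CPM in MPP3 and 26.0, 35.8, 12.6 and 15.8 in MPP4, with no overlap. The MPP4 to MPP3 ratio of a mouse ran from 1.06 to 3.29 in WT and from 2.61 to 6.58 in KO. Fitted as MPP3 minus MPP4, the log2 value was -0.78 ± 0.34 in WT, which did not pass (edgeR FDR 0.172), and -2.17 ± 0.35 in KO, which did (edgeR FDR 0.000373). The difference between these differences, -1.38 ± 0.48, did not pass over all genes (edgeR FDR 1, unadjusted p = 0.0104 in the same fit). With each mouse as a block, as the paired libraries allow, the WT gap passed at an edgeR FDR of 0.0561, and without the MPP4 library of mouse WT1 it passed at 0.0735.

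The gap between the populations was wide for Arpp21 and narrow for Satb1. Arpp21, which encodes an RNA-binding phosphoprotein and hosts the microRNA gene Mir128-2 in an intron, stood at 2.50, 6.15, 4.98 and 2.93 CPM in the WT libraries of MPP3, and at 0.86, 1.29, 1.22 and 2.26 in the KO libraries. In MPP4 it stood at 37.2, 38.9, 41.0 and 40.6 CPM in WT and at 57.9, 41.9, 48.8 and 55.8 in KO. All 4 KO libraries were below all WT libraries in MPP3 and above them in MPP4. The MPP4 to MPP3 ratio of a mouse was 6.33 to 14.9 in WT and 24.7 to 67.1 in KO, and these ranges did not overlap. On the log2 scale, the difference between the libraries of a mouse had no overlap between genotypes, with KO higher, for 1.72% of all genes tested. In the fit, MPP3 minus MPP4 was -3.26 ± 0.28 on the log2 scale in WT (edgeR FDR 5.37e-07) and -5.17 ± 0.31 in KO (edgeR FDR 8.43e-09).

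Satb1 was well expressed in both populations, at 66.7 ± 12.1 CPM in MPP3 WT, 71.7 ± 4.86 in MPP3 KO, 177 ± 22.3 in MPP4 WT and 206 ± 22.5 in MPP4 KO (SD, n = 4 each). Its MPP4 to MPP3 ratio hardly varied between mice, from 2.52 to 3.05 in WT and from 2.69 to 3.11 in KO. The log2 difference of MPP3 from MPP4 was -1.41 ± 0.12 in WT (edgeR FDR 7.54e-07) and -1.52 ± 0.12 in KO (edgeR FDR 3.12e-07).

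Among the T lineage genes, Ccr9 had the widest gap and Lck the narrowest. Notch1 stood at 18.4 ± 5.07 CPM in MPP3 WT, 17.7 ± 4.39 in MPP3 KO, 75.9 ± 4.82 in MPP4 WT and 77.8 ± 15.9 in MPP4 KO (SD, n = 4 each). The MPP4 levels of the 2 genotypes thus lay within their spread, and so did the MPP3 levels. The log2 difference of Notch1 in MPP3 from MPP4 was -2.05 ± 0.20 in WT (edgeR FDR 2.42e-06) and -2.14 ± 0.20 in KO (edgeR FDR 1.33e-06).

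In MPP3, Ccr9 had 18, 1, 74 and 29 counts in the WT libraries and 33, 18, 52 and 36 in the KO libraries, a low and scattered level. In MPP4 it stood at 15.0, 13.5, 14.6 and 12.7 CPM in WT and at 9.72, 8.03, 9.71 and 11.6 in KO, so that each KO library was below each WT library. The log2 difference of MPP3 from MPP4 was -4.11 ± 0.51 in WT and -3.37 ± 0.50 in KO. With a library left out, the WT value ran from -4.91 to -3.75. Other annotated genes share 21.5% of the Ccr9 exon bases, the largest share in the set. Ccr9 is also used as a marker of plasmacytoid dendritic cells, and the summed level of 6 other markers of that cell type was 188 to 228 CPM in MPP4 WT and 230 to 357 CPM in MPP4 KO, higher in KO where Ccr9 was lower. Between the populations these markers went with Ccr9, as their sum was 123 to 156 CPM in MPP3 WT and 142 to 210 in MPP3 KO. Most of the sum was Bst2 and Irf7, Cox6a2 stood at 1.17 CPM in MPP3 WT against 20.3 in MPP4 WT, and Klk1 had 0 counts in every library. The part of these cells in the Ccr9 values was not tested.

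Lck was the most abundant of the 3 T lineage genes per length. It stood at 45.1 ± 4.87 CPM in MPP3 WT, 40.7 ± 5.56 in MPP3 KO, 135 ± 10.3 in MPP4 WT and 151 ± 19.2 in MPP4 KO (SD, n = 4 each). Per kb of exon these levels were 15.4, 13.9, 46.0 and 51.4 CPM, while the CD3 chain genes Cd3d, Cd3e and Cd3g had 0 to 119 counts a library. Of the 7 T cell markers, 2 had a higher mean in MPP4, as Lck did. These were Cd4, at 5.0 CPM in MPP3 WT against 9.69 in MPP4 WT, and Cd5, at 1.21 against 4.16. The other 5, which are the CD3 chain genes, Cd8a and Trac, had a lower mean in MPP4 in both genotypes, for example Cd3e at 0.435 CPM in MPP3 WT against 0.133 in MPP4 WT, and at 1.16 against 0.317 in KO. The part of T cells in the Lck values was not tested. The log2 difference of Lck in MPP3 from MPP4 was -1.58 ± 0.11 in WT (edgeR FDR 7.97e-08) and -1.89 ± 0.11 in KO (edgeR FDR 9.34e-09).

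**Figure D2:**
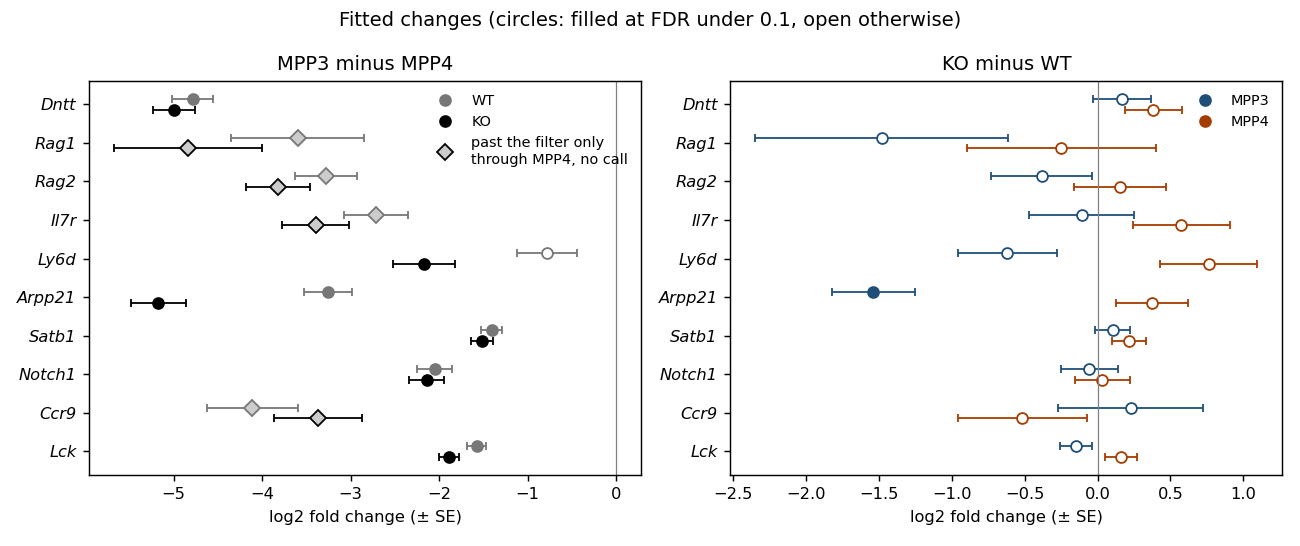
Fitted log2 fold changes of the 10 genes with their SE, MPP3 minus MPP4 in each genotype on the left and KO minus WT in each population on the right, with filled circles at FDR under 0.1. Diamonds on the left mark the 4 genes tested only through MPP4, for which no call is drawn. The left values are all below 0 and, of the circles there, only Ly6d in WT is open. On the right only Arpp21 in MPP3 is filled, at -1.54.

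Between genotypes the set moved little. In MPP3, 1 of 10 genes passed the test, against 0.0676% of all genes tested, and in MPP4 0 of 10 passed in edgeR, in DESeq2 or in limma-voom with mouse as a random block, against 0.0169% in edgeR. At an unadjusted p under 0.05 there was 1 gene in each population, Arpp21 in MPP3 and Ly6d in MPP4, where 10.5% and 12.8% of all genes tested had such a p. The interaction of genotype and population passed for 0 of the 10 genes and for 0.0% of all genes in edgeR, where 2 of the 10 and 2.28% of all genes had an unadjusted p under 0.05, and DESeq2's Wald test called 1, Arpp21, and 0.0676% of all genes. The median log2 difference of KO from WT was -0.13 in MPP3 and 0.19 in MPP4 over the 10 genes, against -0.0055 and -0.013 over all genes tested.

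Arpp21 fell in MPP3 KO by 1.54 ± 0.28 on the log2 scale (edgeR FDR 0.0795), from 4.14 ± 1.72 to 1.41 ± 0.60 CPM (SD, n = 4 each). The call was lost in 10 of 16 fits that each left out 1 library, with edgeR FDR from 0.103 to 0.277, of which the highest were 0.277 without MPP3 KO replicate 2, 0.253 without MPP3 WT replicate 2 and 0.202 without MPP3 KO replicate 3. The other 7 losses came from leaving out any MPP4 library but KO replicate 2, where the log2 difference stayed at -1.54. With mouse as a random block the limma-voom FDR was 0.288, and with only the 8 MPP3 libraries the edgeR FDR was 0.368. DESeq2's Wald test kept the call (FDR 1.27e-05). In MPP4 the KO level was 51.1 ± 7.30 CPM against 39.4 ± 1.74 in WT, a log2 difference of 0.38 ± 0.25 that did not pass (edgeR FDR 0.544). The difference between the 2 genotype effects was -1.91 ± 0.38 and did not pass over all genes in edgeR (FDR 0.409) but did in DESeq2's Wald test (FDR 0.00117).

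In MPP4, the KO and WT libraries of 3 genes did not overlap, Dntt and Arpp21 with KO higher and Ccr9 with KO lower, where 2.83% and 4.44% of all genes tested showed these patterns. In MPP3 it was 1 gene, Arpp21 with KO lower, where 2.41% of all genes did so. None of the MPP4 differences passed the test. Dntt was 0.38 ± 0.20 higher on the log2 scale (edgeR FDR 0.429), and the lowest KO library, at 1410 CPM, was just above the highest WT library, at 1392. Ccr9 stood at a log2 difference of -0.52 ± 0.44 (edgeR FDR 0.648). Ly6d stood at 0.76 ± 0.33 (edgeR FDR 0.347) and Il7r at 0.58 ± 0.34 (edgeR FDR 0.489), with overlapping libraries. The Ly6d value ran from 0.45 without MPP4 KO replicate 2 (unadjusted p = 0.192 in edgeR) to 0.97 with a library left out. The KO mice were the younger ones, and with age as a term the MPP4 values became 0.24 for Dntt, -0.0035 for Ccr9, 0.16 for Ly6d and, for Lck, 0.019 in place of 0.16. Il7r stayed near its value, at 0.54, and Rag2 rose from 0.15 to 0.31. With the same term the value of Ly6d in MPP3 went from -0.62 to -1.17 (edgeR FDR 0.576 and 0.244). Age and genotype largely go together in these mice, and their parts cannot be told apart. For Rag1, Rag2, Satb1, Notch1 and Lck the log2 difference in MPP4 lay between -0.25 and 0.22. Rag1 in MPP3 had the widest error, -1.48 ± 0.87 (edgeR FDR 0.606), as its counts were at or near 0 in several of these libraries. It was -2.97 without KO replicate 3 and -0.89 without WT replicate 4.

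Some markers of other cells stood at unlike levels between genotypes in these libraries, though none of those tested passed. Their part in the values above was not tested. Cd79a, a component of the B cell receptor, had 69 to 123 counts in the WT and 1 to 25 in the KO libraries of MPP3, and 47 to 354 and 0 to 26 in those of MPP4. The summed level of all 9 pro-B cell markers overlapped between genotypes, at 76.5 to 85.8 CPM in WT and 68.8 to 85.1 in KO for MPP3, and at 81.2 to 107 and 80.1 to 96.6 for MPP4. That sum was mostly Cd79b, at means of 72.1 CPM in MPP3 WT and 72.5 in MPP3 KO, while Pax5 stood at 0.639 and 0.0597 and Vpreb3 at 1.94 and 0.527. Vpreb1 went the other way, at 0.861 CPM in MPP3 WT and 1.15 in MPP3 KO. Of the 3 pro-B cell markers tested 0 passed, and the median log2 difference of KO from WT was -3.01 in MPP3 and -0.43 in MPP4. The summed plasma cell markers were 108 to 526 CPM in MPP3 WT and 5.68 to 93.4 in MPP3 KO, and 67.8 to 147 and 54.0 to 117 in MPP4. In MPP4 that sum was mostly Sdc1, at means of 96.1 CPM in WT and 77.2 in KO, while Igkc, an antibody light chain gene, had 46 to 514 counts in WT and 0 to 6 in KO libraries. Of the 4 plasma cell markers tested 0 passed, and the median log2 difference of KO from WT was -3.31 in MPP3 and -0.59 in MPP4. The 7 T cell markers summed to 5.27 to 10.2 CPM (WT) and 6.77 to 17.6 (KO) in MPP3 and to 10.9 to 17.8 and 13.5 to 18.7 in MPP4, so they overlapped between genotypes. The 6 mature neutrophil markers also overlapped, at 11.6 to 46.6 CPM in WT and 9.24 to 75.1 in KO for MPP3, and at 1.48 to 8.52 and 3.14 to 13.4 for MPP4. Of the 6 genes of the sorting gate, 5 were tested between genotypes, and 0 passed in MPP3 and 1, Kit, in MPP4. The summed level of the 6 genes was 3712 to 4122 CPM in MPP4 WT and 3311 to 3562 in MPP4 KO, with no overlap, and 2970 to 3088 and 2677 to 2991 in MPP3, with overlap. Kit was lower in MPP4 KO, at a mean of 408 CPM against 547 in WT (log2 difference -0.42 ± 0.067, edgeR FDR 0.0560), and Flt3 stood at 1009 against 1229 CPM (log2 difference -0.28 ± 0.095, edgeR FDR 0.229). Others were fitted the other way in MPP4 KO without passing, Ly6a, which encodes Sca-1, at 0.44 ± 0.13 (edgeR FDR 0.193) and Cd48 at 0.30 ± 0.099 (edgeR FDR 0.226).

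**Figure D3:**
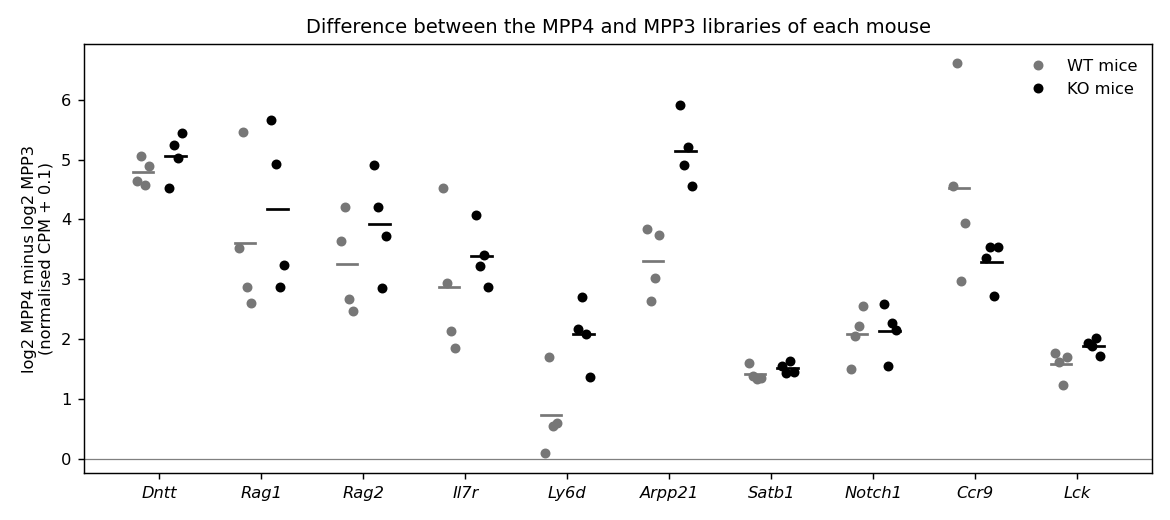
Difference between the MPP4 and MPP3 libraries of each mouse for the 10 genes, as log2 of normalised CPM plus 0.1, with 4 WT mice in grey, 4 KO mice in black and lines at the means. All points are above 0. Of the 10 genes, the KO mice sit apart from the WT mice for Arpp21 alone, at 4.57 to 5.91 against 2.64 to 3.84, and over all genes tested they do so, in either direction, for 3.66%.

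The partners of these genes did not follow a single pattern between MPP3 and MPP4. Between the populations, 8.33% of all genes tested were higher in MPP4 and 6.8% in MPP3 in WT, and 9.18% and 8.71% in KO. Of the general end joining genes that complete V(D)J recombination, 13 of 14 were tested, and 3 were higher in MPP4 in both genotypes and 0 in MPP3. These were Xrcc6, which encodes the Ku70 subunit that binds broken ends, at 320 ± 13.4 CPM in MPP4 WT against 213 ± 12.6 in MPP3 WT, Poll, a gap-filling polymerase, at 44.6 ± 7.52 against 31.0 ± 2.36, and Hmgb2, a DNA-bending cofactor of the recombinase, at 1038 ± 75.9 against 902 ± 37.9 (SD, n = 4 each). The median log2 difference of the list was -0.11 in WT, where it was -0.00039 over all genes tested.

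Of the genes called in the lists that follow, Tcf7 and Tslp reached the count minimum only through MPP3 and Zap70, Cd247 and Ccr7 only through MPP4, so their calls are a description. Without them the WT counts of genes higher in MPP3 and in MPP4 were 3 and 3 for the Notch list, 2 and 2 for the IL-7 receptor list, 1 and 2 for the partners of Lck and 2 and 2 for the homing list.

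Notch pathway genes split in direction. In WT mice 4 of 20 tested genes were higher in MPP3 and 3 were higher in MPP4, where 6.8% and 8.33% of all genes tested were. The first were Tcf7 and Gata3, T lineage transcription factors that Notch induces in thymocytes, with Psen2 and Adam10, which cleave the receptor, and the second were Lfng and Mfng, glycosyltransferases that modify Notch, with the coactivator Maml3. Tcf7 stood at 9.16 ± 3.40 CPM in MPP3 WT and 0.86 ± 1.05 in MPP4 WT, opposite in direction to Notch1. Both Tcf7 and Gata3 are also expressed by innate lymphoid cells, and the summed level of 7 markers of NK and innate lymphoid cells was 440 to 594 CPM in MPP3 WT against 245 to 350 in MPP4 WT, whose part in these values was not tested. That sum was mostly Nkg7, a granule gene, at a mean of 502 CPM in MPP3 WT and 277 in MPP4 WT. Il1rl1 stood at 3.07 against 0.253 CPM, Rora at 11.6 against 11.5, and Icos went the other way, at 3.75 against 10.2. In KO mice 3 of the Notch pathway genes were higher in MPP3 and 3 in MPP4, where 8.71% and 9.18% of all genes tested were.

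Of 18 genes of IL-7 receptor signalling, 3 were higher in MPP3 WT (the cytokine gene Tslp, the transcription factor gene Stat5a and the kinase gene Jak1) and 2 in MPP4 WT (the survival gene Bcl2 and the kinase subunit gene Pik3r1) while the receptor chain gene Il7r itself was higher in MPP4. Of all genes tested, 6.8% were higher in MPP3 WT and 8.33% in MPP4 WT. In the KO the counts of the list were the same, 3 and 2, with Socs2, a feedback inhibitor, in the place of Pik3r1. The shares of all genes tested were 8.71% and 9.18% there. Socs2 stood at 36.6 ± 8.29 CPM in MPP4 KO against 3.33 ± 1.53 in MPP3 KO (log2 difference of MPP3 from MPP4 -3.46 ± 0.60, edgeR FDR 0.000659). Of 11 partners of Lck tested and reported here, 4 were higher in MPP4 WT and 1 in MPP3 WT, against 8.33% and 6.8% of all genes tested. Zap70, the kinase that acts after Lck, stood at 4.77 ± 1.12 CPM in MPP4 WT against 1.01 ± 0.35 in MPP3 WT, and Cd247, the zeta chain, at 6.55 ± 0.39 against 1.72 ± 0.47. In the KO the counts were 5 and 1.

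Of the 20 other genes of lymphoid-primed progenitors tested and reported here, 11 were higher in MPP4 in each genotype. One of them is Flt3, whose product defined the MPP4 gate, and without it the count was 10 of 19 in each genotype. Over all genes tested, 8.33% were higher in MPP4 and 6.8% in MPP3 in WT, and 9.18% and 8.71% in KO. The 11 included Blnk, an adaptor of the B cell receptor, at 16.8 ± 2.23 CPM in MPP4 WT against 2.94 ± 0.61 in MPP3 WT, Il12a, which encodes a cytokine subunit, at 261 ± 28.5 against 55.9 ± 10.7, and Ets1, a lymphoid transcription factor, at 80.1 ± 12.6 against 30.1 ± 5.81. Of 7 homing genes, Ccr7, Itgb7 and Selplg were higher in MPP4 WT, and S1pr1 and Itga4 in MPP3 WT. Ccr7, a chemokine receptor that guides progenitors to the thymus along with Ccr9, stood at 20.7 ± 1.88 CPM in MPP4 WT against 1.98 ± 1.35 in MPP3 WT.

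**Figure D4:**
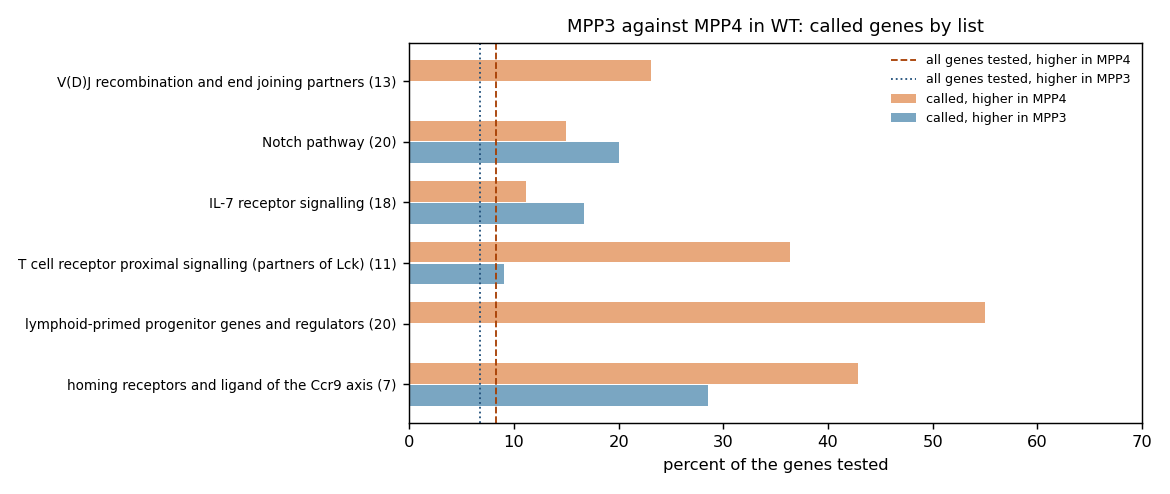
Percent of the tested genes of each list called higher in MPP4 (orange) or in MPP3 (blue) in WT mice, with the number tested in brackets and lines for all genes tested (8.33% and 6.8%). The bars include Tcf7, Tslp, Zap70, Cd247 and Ccr7, which reached the count minimum through 1 population only, so their part is a description. In the lymphoid-primed list 11 of 20 reported genes are higher in MPP4, or 10 of 19 without Flt3, whose product defined the gate. The Notch and IL-7 receptor lists hold calls in both directions.

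Between genotypes, 0 genes of any of the 6 lists passed in either population in edgeR, while DESeq2's Wald test called 2 in MPP3 (Jak3 and Pik3cd) and 7 in MPP4 (Blnk, Jak1, Mfng, S1pr1, Selplg, Socs2 and Stat5a). Over the 89 list genes tested these are 2.25% and 7.87%, where DESeq2 called 1.82% and 2.58% of all genes. With mouse as a random block, limma-voom called 0 and 3 (Blnk, Mfng and Socs2), or 3.37% of the list genes in MPP4, where it called 0.287% of all genes. At an unadjusted p under 0.05 the IL-7 receptor list had 10 of 18 genes in MPP4 (55.6%, against 12.8% of all genes tested), with 3 higher and 7 lower in KO, and 4 of 18 in MPP3 (22.2% against 10.5%). The homing list had 2 of 7 such genes in each population (28.6%), and the lymphoid-primed list 4 of 20 in MPP3 (20.0%) and 5 of 20 in MPP4 (25.0%). The other 3 lists had 0.0% to 10.0% in MPP3 and 9.09% to 15.4% in MPP4. In MPP4, Socs2 stood at 36.6 ± 8.29 CPM in KO against 7.88 ± 6.96 in WT (log2 difference 2.22 ± 0.56, edgeR FDR 0.166), and Jak1 at 319 ± 30.2 against 373 ± 11.0 (edgeR FDR 0.187). Blnk stood at 29.8 ± 2.98 CPM in KO against 16.8 ± 2.23 in WT (log2 difference 0.83 ± 0.21, edgeR FDR 0.166).

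Over the 16 libraries, the levels of the 10 genes moved together. Pearson's r of log2 CPM ranged from 0.675 to 0.984 over the 45 pairs, with 30 pairs above 0.9, and these points share mice, libraries and the gap between the populations. After the group means were subtracted, r ran from -0.766 (Dntt with Arpp21) to 0.774 (Rag1 with Rag2), with a median of 0.0778. The gene most like Rag1 in level was Rag2 (r = 0.969), and the reverse held. The gene most like Dntt was Mn1 (r = 0.989), that most like Lck was Dntt (r = 0.984), and those most like Il7r and Ccr9 were in both cases Tlr7 (r = 0.964 and 0.961). Variable or joining segments of the immunoglobulin heavy chain locus, Ighv1-83, Ighv1-77, Ighv1-23, Ighj1 and Ighj4, were among the 3 genes most like 5 of the 10, with r from 0.966 to 0.988. These correlations describe 16 libraries from 8 mice and carry no test.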

How the data were processed

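Bulk RNA of sorted MPP3 and MPP4 cells was sequenced from 8 mice. The authors mapped trimmed reads with STAR 2.7.3a to mm10, and featureCounts 2.0.0 gave a count for each gene (versions per the submitters' processing notes); the annotation release and strand setting are not given in the sources used here. The authors deposited raw read counts, without normalisation or unique molecular identifiers, in a table per population. A table of normalised values was not used. Identifiers were matched to GENCODE vM21 on GRCm38 (47310 of 47937).

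Counts of the 16 libraries were fitted together in edgeR 4.0.16 (R 4.3.3): TMM scaling, genes whose mean exceeded 100 counts in at least 1 group, 1 coefficient per group, quasi-likelihood test, Benjamini-Hochberg over 11831 genes, called at FDR under 0.1. SE is the log2 fold change over the square root of F. Normalised CPM used the TMM library sizes, and 0.1 was added before logs. Alternatives used DESeq2 1.42.0 and limma 3.58.1. The fit was tested on simulated counts. The same replicate number marks the same mouse per the labels (genotype, sex and age), and deviations from group means of the MPP3 and MPP4 libraries of a mouse correlated at 0.274 to 0.528, so the numbers pair the libraries. Total counts of 24823708 to 48703193 limit genes under about 3 counts, a limit that covers counting error only. The 10 genes, the lists and the motifs were chosen with earlier results of these data known. Named list genes were the called ones, at most 4 in each direction by fold change, except those of the genotype comparison, which were chosen after their values were seen. 1 gene of the lymphoid-primed list and 1 of the partners of Lck are not reported here and were left out of the counts. Protein sequences were not analysed here.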

Additional observations from a re-analysis of the deposited data

Results flagged for a closer look

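In MPP3 WT, the Lck level of replicate 3, 52.4 CPM, stood apart from the other 3 libraries at 42.3 to 43.2 CPM by Dixon's criterion. It was 1 of 40 groups examined, of which chance flags about 1 in 20. Leaving that library out gave no call for Lck between genotypes in MPP3.

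All 4 KO libraries of Arpp21 were below the WT libraries in MPP3 and above them in MPP4. The difference between the genotype effects was -1.91 ± 0.38 on the log2 scale, with an edgeR FDR of 0.409 over all genes, 0.185 with mouse as a fixed block, and 0.00117 in DESeq2's Wald test. Over the settings run it kept its sign.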

How the results depend on the processing

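In MPP3 against MPP4, the 6 genes that reached the count minimum in both populations stayed lower in MPP3 in every setting run, and the number called was 5 to 6 in WT and 6 in KO. Between genotypes in MPP3, the number of the 10 genes called moved from 1 to 0 with edgeR's adjusted deviances (Arpp21 FDR 0.148), the filterByExpr filter (0.114), age as a term (0.205), only the 8 libraries of the population (0.368) and mouse as a random replicate block in limma-voom (0.288), and it was 0 to 1 with a library left out. The interaction moved from 0 to 1 with DESeq2's Wald test. The fixed mouse block added Ly6d in WT (FDR 0.0561) and changed no other call of the 10 in the comparisons it covers. Sex as a term also added Ly6d in WT (0.0757). Over all genes, the fixed mouse block called 2930 in WT and 3346 in KO between populations, where the fit without it called 1790 and 2116. Between genotypes, calls over all genes ranged from 1 to 215 in MPP3 (8 in the fit reported) and from 1 to 305 in MPP4 (2), with DESeq2 highest in each, and from 1 to 137 and 1 to 41 with a library left out; the cause was not tested. The sign turned, with no call, for Dntt in MPP3 (-0.12 without KO replicate 1; range with a library left out -0.12 to 0.34), Il7r in MPP3 (0.07, 0.18, 0.02 and 0.03 without WT replicates 3 and 4 and KO replicates 1 and 3; range -0.40 to 0.18), Notch1 in MPP3 (0.15 without both libraries of mouse WT1 or its MPP3 library, 0.05 without KO replicate 4; range -0.23 to 0.15), Ccr9 in MPP3 (-0.13 without WT replicate 2, -0.019 without KO replicate 3; range -0.13 to 1.03) and Notch1 in MPP4 (-0.089 with age, -0.10 without KO replicate 1). In the interaction it turned for Satb1 (0.0039 without MPP3 WT replicate 3; range -0.20 to 0.0039) and Notch1 (0.13 without mouse WT1, 0.11 without WT1 of MPP3, 0.018 without KO4 of MPP3, 0.041 without KO1 of MPP4; range -0.26 to 0.11). Counts of genes whose groups do not overlap stayed at 1 and 3 under RLE scaling and total-count CPM, chosen after seeing the data. Depth limits Rag1 and Ccr9 in MPP3, with 0 to 24 and 1 to 74 counts a library.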
